A study of Bos taurus with 24 samples.

Results

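A group of 31 genes, among 27570 bovine Ensembl gene IDs counted in calf adrenal glands, was more abundant in every calf sampled at birth than in any calf sampled at weaning. Its members were chosen by their change with age in these same libraries. The lowest of the 12 birth libraries had to exceed the highest of the 12 weaning libraries in CPM (read counts divided by the total of the library and put on a common scale). The mean birth level plus 0.5 CPM also had to be at least 2 times the mean weaning level plus 0.5 CPM. This quotient is called the birth-to-weaning ratio here. Over all IDs, 33 met both conditions (0.12%) and 50 met the first alone (0.181%). Of 3 IDs that the selection rule left out by name, 2 were among those 33. The levels at both ages are therefore a description of what was selected, and no test of the change with age is given.

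Adrenal glands came from 24 female calves in 4 groups of 6. Calves had been exposed to heat stress (IUHS) or to cooling (IUCL) while in utero, and tissue was taken at birth (day 0) or at weaning (day 63). Each calf gave 1 library and was sampled at 1 age, so the fall compares different animals. Total counts ranged from 13607084 to 19012206 at birth and from 12261651 to 17060279 at weaning. The count tables do not pair IDs with gene names, and the table of 37063 bovine genes at hand gave an Ensembl ID for 0 of them. As a result 0 of the 31 members could be matched to a symbol, a genome position or a sequence, and the tissue label was not checked against marker genes. On principal components 3 and 4 of all genes tested, the libraries farthest from their group were IUHS weaning calf 28, which scored 67.8 on component 3 where the others ranged from -15.96 to 17.4, and IUCL birth calf 3, which scored 53.8 on component 4 where the others ranged from -25.4 to 11.9. Without both, 54 IDs met the rule, 30 of them members. The strand setting of the counting was not given in the sources used here, so reads of overlapping or antisense genes could not be told apart. Reads of near-identical genes could not be told apart from the counts either.

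The adrenal gland joins a steroid-producing cortex to a medulla of catecholamine-producing chromaffin cells. In ruminants the fetal cortex raises its cortisol output towards the end of gestation, which matures other organs and takes part in starting labour, and the gland goes on growing and reorganising after birth. Whole-gland RNA mixes all of these cells. Fewer cells of a type and less RNA per cell cannot be told apart in such bulk samples.

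Most members were moderately expressed. Their mean birth level ranged from 2.21 to 282 CPM with a median of 15.97 CPM. There were 5 members at 50 CPM or more, 8 from 20 to under 50, 13 from 10 to under 20, 3 from 5 to under 10 and 2 below 5 CPM. At weaning the mean levels ranged from 0.246 to 124 CPM with a median of 4.68 CPM. All 31 members passed the low-count filter of the statistical fit. Together they took 0.107% ± 0.0158 of all counts at birth in the IUCL group and 0.1025% ± 0.00982 in the IUHS group, against 0.0386% ± 0.00409 and 0.0402% ± 0.00488 at weaning (SD, n = 6 each). The share in single birth libraries ran from 0.0830% to 0.121%, and in single weaning libraries from 0.0313% to 0.0459%. The members therefore made up a small share of all counts at both ages.

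**Figure D1:**
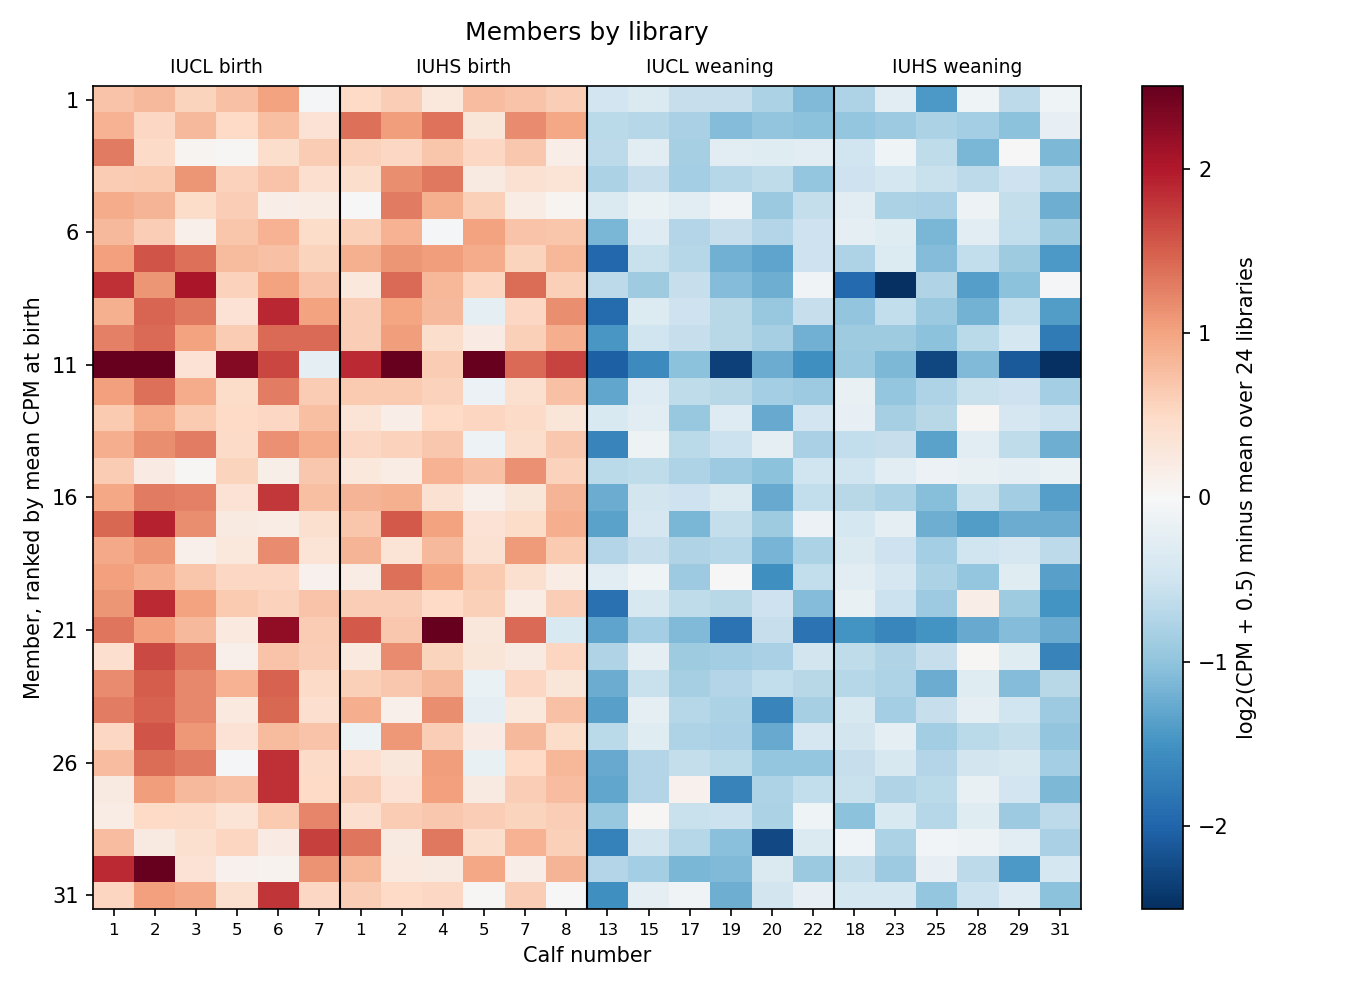
Level of each of the 31 members (rows, ranked by mean birth CPM) in each of the 24 libraries (columns, by calf number), as log2(CPM + 0.5) minus the mean over all libraries, with colours limited to 2.5 in either direction. Birth columns are mostly red and weaning columns mostly blue because members were selected on this difference. IUHS calf 5 is pale for many members, and it was the lowest birth library for 11 of them.

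The size of the fall was modest for most members and large for a few. The birth-to-weaning ratio ranged from 2.01 to 16.9 with a median of 2.73. It lay between 2 and 3 for 20 members, from 3 to under 4 for 8 members, and at 4 or more for 3 members. At the limit of 2, the IDs just inside had ratios of 2.01 (95.1 against 46.9 CPM) and 2.02 (16.7 against 8.02 CPM), and those just outside had 1.95 (9.76 against 4.76 CPM) and 1.90 (20.1 against 10.4 CPM). The 17 IDs without overlap but under the limit extended down to a ratio of 1.33. No step in the ratios marked the limit.

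The gap between the ages was narrow. The lowest birth library exceeded the highest weaning library by under 1.1 times for 13 members, and by at least 1.5 times for 4 members. The widest gap was 1.88 times, in the 7th most abundant member, which had 28.7 CPM at birth and 7.48 CPM at weaning. At the other side of this limit, 369 IDs with a mean birth level of at least 1 CPM had a ratio of at least 2 but overlapped between ages, and the closest of them missed by a quotient of 0.997.

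**Figure D2:**
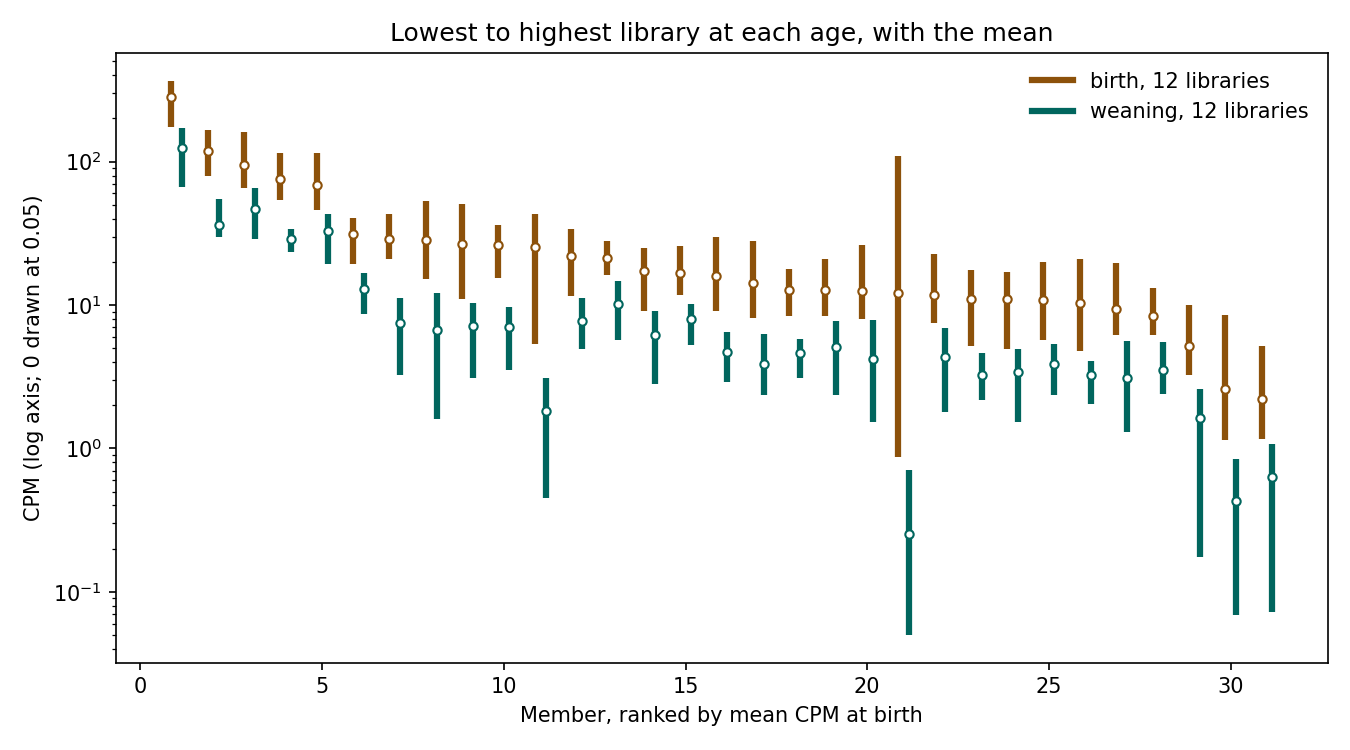
Lowest to highest library (bars) and mean (open circles) of each member at birth and at weaning, in CPM on a log axis, with members ranked by mean birth level. The bars of the 2 ages do not overlap for any member, as the selection required, and for many they nearly touch.

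The most abundant member was ENSBTAG00000037899. At birth its lowest, median and highest levels were 175, 301 and 367 CPM in IUCL calves and 219, 281 and 312 CPM in IUHS calves. At weaning they were 84.1, 122 and 142 CPM in IUCL calves and 66.8, 134 and 170 CPM in IUHS calves. The ages were kept apart by the narrow step from the highest weaning library, IUHS calf 31, to the lowest birth library, IUCL calf 7. The group means were 289 ± 64.5 and 275 ± 33.0 CPM at birth and 118 ± 20.5 and 130.0 ± 41.0 CPM at weaning, for IUCL and IUHS calves (SD, n = 6 each). The fitted change with age was -1.30 ± 0.20 (log2, SE) in IUCL calves and -1.03 ± 0.20 in IUHS calves.

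ENSBTAG00000016171 had the largest ratio, 11.2, among members with at least 5 CPM at birth and no library holding over 50% of the birth signal. At birth its lowest, median and highest levels were 5.35, 27.2 and 43.4 CPM in IUCL calves and 10.1, 23.1 and 42.6 CPM in IUHS calves. At weaning they were 0.861, 1.83 and 2.87 CPM in IUCL calves and 0.451, 1.87 and 3.11 CPM in IUHS calves. Calves of the same birth group differed widely: IUCL calves 3 and 7, at 8.34 and 5.35 CPM, and IUHS calf 4, at 10.1 CPM, were far below the others, which ranged from 17.8 to 43.4 CPM. Even so, the lowest birth library was 1.72 times the highest weaning library. The fitted change with age was -3.77 ± 0.51 in IUCL calves and -3.79 ± 0.52 in IUHS calves (log2, SE).

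**Figure D3:**
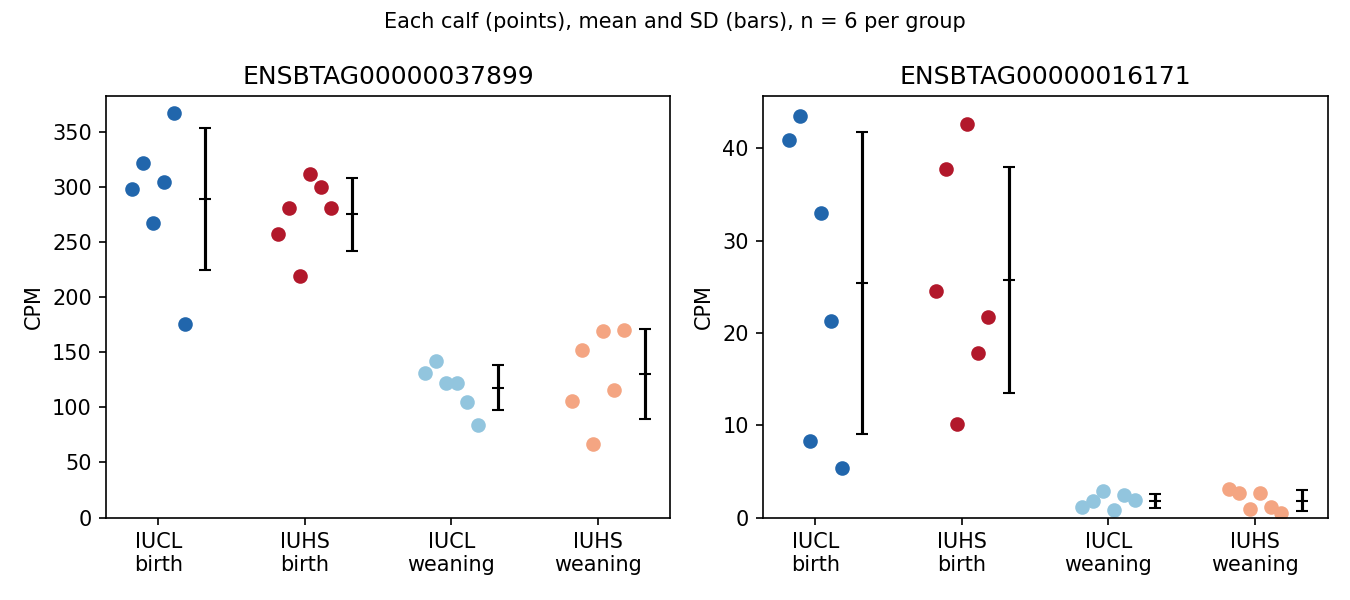
Level of the most abundant member (left) and of the member with the largest ratio under the naming rule (right) in each calf, in CPM on axes from 0, with the mean and SD of each group of 6. The weaning calves reach at most 170 CPM on the left and 3.11 CPM on the right, below the lowest birth calves at 175 and 5.35 CPM.

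A further member, the 21st by birth level, had the largest ratio of all, 16.9, which rested on 1 calf. IUHS calf 4 stood at 109.8 CPM and held 75.6% of the summed birth CPM, while the next highest birth library was at 7.79 CPM. Without that calf its ratio was 4.98. At weaning this member had at most 12 counts in any library and 0 counts in 2 libraries, against at least 15 counts in every birth library. It was the only member with a weaning library at 0.

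Within a group, members differed between calves by a median coefficient of variation over the 31 members of 33.7% (IUCL) and 23.9% (IUHS) at birth, and of 28.1% and 27.3% at weaning. The fitted biological coefficient of variation had a median of 0.282 over the members and 0.239 over all 15693 genes tested.

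The calf that lay closest to the gap was not the same for all members. At birth, 11 of the 12 libraries were the lowest for at least 1 member, and at weaning 11 of the 12 were the highest for at least 1. IUHS calf 5 was the lowest birth library for 11 members (35.5%), and no other calf for more than 4. Over all genes tested, this calf was the lowest birth library for 10.6%, and single birth libraries ranged from 2.61% to 18.4%. Among the 368 tested genes that were no members but had a ratio of at least 2, it was the lowest for 36.7%. In the 11 members IUHS calf 5 had a median of 50.6% of the mean of the other 11 birth libraries (range 39.1% to 69.9%). Its total of 14990966 counts lay within the range of the other birth libraries, and it was not low for the members named above, with 312 CPM of ENSBTAG00000037899 and 42.6 CPM of ENSBTAG00000016171.

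This calf set the size of the group. Without IUHS calf 5 at birth, 106 IDs met the rule in place of 31: 30 members and 76 further IDs. In those 76 IDs the calf had a median of 27.98% of the mean of the other birth libraries (range 3.75% to 63.2%). They resembled the members in level, with a median birth level of 15.5 CPM, and in ratio, with a median of 3.01. Without IUCL calf 3 at birth, 48 IDs met the rule, and without both calves 129 did. Leaving out any other single library gave 29 to 37. Within 1 treatment alone, where 6 birth libraries were set against 6 weaning libraries, 203 IDs (0.736%) met the level and fold conditions in IUCL calves and 133 (0.482%) in IUHS calves. The latter number was 240 without IUHS calf 5. On principal component 1, which carried 21.0% of the variance, birth libraries scored 16.2 to 45.3 and weaning libraries -44.2 to -22.4. The lowest birth score, 16.2, was that of IUHS calf 5, below the 23.7 to 39.9 of the other 5 IUHS birth calves. IUCL calf 3 scored 16.6 on it, below the 27.6 to 45.3 of the other 5 IUCL birth calves. On component 2, which carried 15.1%, IUHS calf 5 scored 59.2 against -43.99 to 26.3 in the others of its group, and IUCL calf 3 scored -33.6 against -8.88 to 15. The highest and lowest library of any group lie outside the range of the other 5, so such a position alone does not mark a calf. Further examples on component 2 follow. IUHS weaning calf 31 scored -59.6 (others -14.1 to 27.4) and IUHS birth calf 4 scored -43.99 (others -8.35 to 59.2). IUCL weaning calf 20 scored -44.6 (others -17.7 to 38.3), and IUCL weaning calf 22 scored 38.3 (others -44.6 to 17.7). Why any of these calves scored as it did was not tested.

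Members also varied together between calves of the same group. After the group means were removed from log2 CPM, the correlation between 2 members over the 24 libraries had a mean of 0.211 and a median of 0.202 over 465 pairs, and 77.6% of pairs were positive. Over all genes tested the mean was 0.00123. Scaling of libraries tends to keep that mean near 0, since positive and negative pairs cancel. No mean was computed for the other genes with a ratio of at least 2, so it is not known whether the members differ from them. The members' mean was 0.220 over the birth libraries, 0.196 over the weaning libraries and 0.198 without IUHS calf 5. For the 11 members lowest in IUHS calf 5, a subset chosen on these values, it was 0.525 with that calf and 0.439 without it. These correlations describe genes measured in the same libraries, which share depth and tissue composition. The 31 members of a calf are therefore not 31 independent observations.

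The fall was described in each treatment separately, because the selection had pooled them. The median fitted change with age over the members was -1.83 (log2) in IUCL calves and -1.31 in IUHS calves, against 0.01 over all genes tested in either treatment. All 31 were lower at weaning in both treatments, which the selection fixed. The ratio was larger in IUCL than in IUHS calves for 23 members. In the 11 members lowest in IUHS calf 5, the median ratio was 3.56 in IUCL and 2.39 in IUHS calves. Picking members by a low IUHS birth library itself lowers their IUHS ratio. In the other 20 members the median ratio was 2.88 and 2.30.

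**Figure D4:**
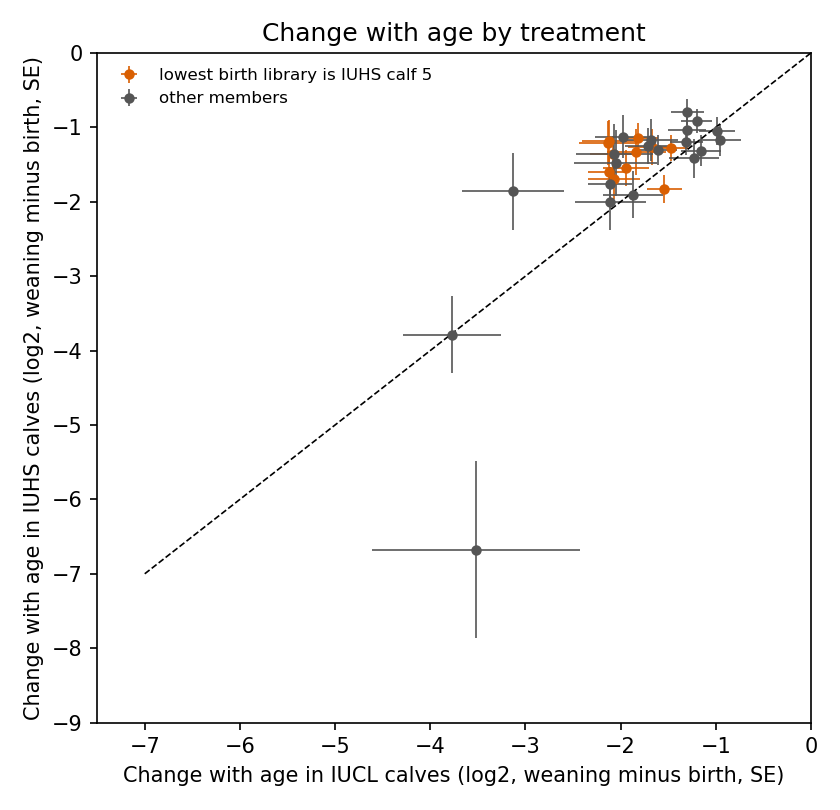
Fitted change from birth to weaning (log2, with SE bars) in IUCL calves (horizontal) and IUHS calves (vertical) for the 31 members, with the line of equal change dashed. Members whose lowest birth library was IUHS calf 5 are orange. More points lie above the line, where the fall is smaller in IUHS calves, than below it, and the lowest point is the member dominated by IUHS calf 4.

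Whether the fall differed between treatments was tested as an interaction in edgeR's quasi-likelihood model of all 24 libraries, with p-values adjusted over all 15693 genes. No member passed (0 of 31; background 0% of genes tested; smallest adjusted p in edgeR 0.893). At an unadjusted p under 0.05 there were 6 members, all with a smaller fall in IUHS calves (log2 difference 0.50 to 0.94), where 5.56% of all genes passed. DESeq2 also called 0 members and gave 6 at an unadjusted p under 0.05. The fitted difference was above 0 for 23 of 31 members and 49.1% of all genes, with a median of 0.37 over members and -0.01 over all genes. With 1 library left out, the members' median ranged from 0.23 (without IUCL birth calf 6) to 0.51 (without IUCL birth calf 5). It was 0.25 without both IUHS weaning calf 28 and IUCL birth calf 3. The member with the smallest unadjusted p in edgeR (0.0237, adjusted 0.893), the 26th by birth level, went from 12.3 ± 5.69 to 2.85 ± 0.547 CPM in IUCL calves and from 8.22 ± 2.51 to 3.60 ± 0.517 CPM in IUHS calves (SD, n = 6 each). Its ranges at birth, 5.37 to 20.9 and 4.80 to 11.9 CPM, overlapped. The number of members at an unadjusted p under 0.05 in edgeR was recounted in each setting. It was 3 or fewer without any 1 of IUCL birth calves 1, 2, 3 and 6, or without IUCL weaning calf 13. The same held without IUHS birth calf 5 or 7, or IUHS weaning calf 18 or 28. It was 1 without IUCL birth calf 2, and 0 without both IUHS weaning calf 28 and IUCL birth calf 3. Those counted were not always among the 6. Without IUCL birth calf 6, and without IUHS birth calf 5, 1 of them had a larger fall in IUHS calves.

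The treatment difference among newborn calves was not itself a condition of the selection. The condition on the lowest birth library still limited how low a member could be in either treatment. This difference is therefore not free of the selection. No member passed (0 of 31; background 0%; smallest adjusted p in edgeR 0.9999), and DESeq2 called 0 as well. Lower levels in IUHS calves were nevertheless frequent: 25 of 31 members had a fitted difference below 0, where 51.4% of all genes had one above 0. The median was -0.32 (log2) over the members, against 0.01 over all genes. No such values are given for the other genes with a ratio of at least 2, so a difference from them cannot be read. At an unadjusted p under 0.05 edgeR gave 9 members, 7 lower and 2 higher in IUHS calves, where 3.93% of all genes passed, and DESeq2 gave 9. Of the 9 in edgeR, 8 were among the members lowest in IUHS calf 5. Picking members by a low IUHS birth library itself lowers their IUHS birth level, so this overlap was partly set by the choice. Of these 8, the 2nd member by birth level was higher in IUHS calves (0.42). Without IUHS calf 5 there were 6 members at an unadjusted p under 0.05 in edgeR. The median difference was then -0.28 and 8 members had a difference above 0, in place of 6. Without IUCL calf 2 there were also 6, the median was -0.20 and 10 members had a difference above 0. Leaving out other birth calves moved these values in either direction. The median was -0.41 without IUHS calf 4 and -0.23 without IUCL calf 3. Without IUCL calf 5 there were 12 members at an unadjusted p under 0.05 in edgeR, and without IUHS calf 7 there were 7. Since members vary together, these counts do not add up like independent genes.

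The member with the smallest unadjusted p at birth in edgeR (0.00368, adjusted 0.9999) was the 23rd by birth level and was lower in IUHS calves by -0.72 ± 0.23 (log2, SE). It measured 8.38 ± 1.95 CPM in IUHS and 13.7 ± 3.51 CPM in IUCL calves (SD, n = 6 each). The IUHS calves spanned 5.14 to 10.6 CPM and the IUCL calves 8.36 to 17.6 CPM, so the groups overlapped. At weaning the same member measured 3.21 ± 0.868 and 3.23 ± 0.575 CPM. In the other direction it was the member dominated by IUHS calf 4, with a fitted difference of 2.58 ± 0.89. Its medians at birth were 3.32 CPM in IUHS and 2.90 CPM in IUCL calves. Computed from mean CPM plus 0.5, its log2 difference was -0.32 without calf 4. For ENSBTAG00000037899 the difference at birth was -0.11 ± 0.20 with a 95% interval of -0.51 to 0.30, and it ranged from -0.22 (without IUCL calf 7) to -0.03 (without IUCL calf 6) with 1 library left out. For ENSBTAG00000016171 it was -0.02 ± 0.44 with an interval of -0.93 to 0.89.

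At weaning no member differed past the threshold between treatments either (0 of 31; background 0%; smallest adjusted p in edgeR 0.61, and 0 called by DESeq2). At an unadjusted p under 0.05 there were 2 members in edgeR and 2 in DESeq2, where 6.99% of all genes passed in edgeR, a share close to the members' own. Both were higher in IUHS calves. The one with the smaller p (unadjusted 0.00309, adjusted 0.61 in edgeR), the 15th by birth level, measured 9.46 ± 0.835 CPM in IUHS and 6.58 ± 0.947 CPM in IUCL calves (SD, n = 6 each). The lowest IUHS calf, at 7.87 CPM, was just below the highest IUCL calf, at 7.88 CPM. Its log2 difference was 0.54 ± 0.16. A difference above 0 was found for 18 of 31 members and 51.2% of all genes, with a median of 0.09 over the members and 0.01 over all genes. The members' median was -0.003 without IUHS calf 28, 0.04 without IUCL calf 13 or IUCL calf 19, 0.05 without IUHS calf 18 and 0.15 without IUCL calf 15. For ENSBTAG00000037899 the difference at weaning was 0.16 ± 0.20 (95% interval -0.25 to 0.57), and for ENSBTAG00000016171 it was -0.03 ± 0.52 (-1.11 to 1.05).

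**Figure D5:**
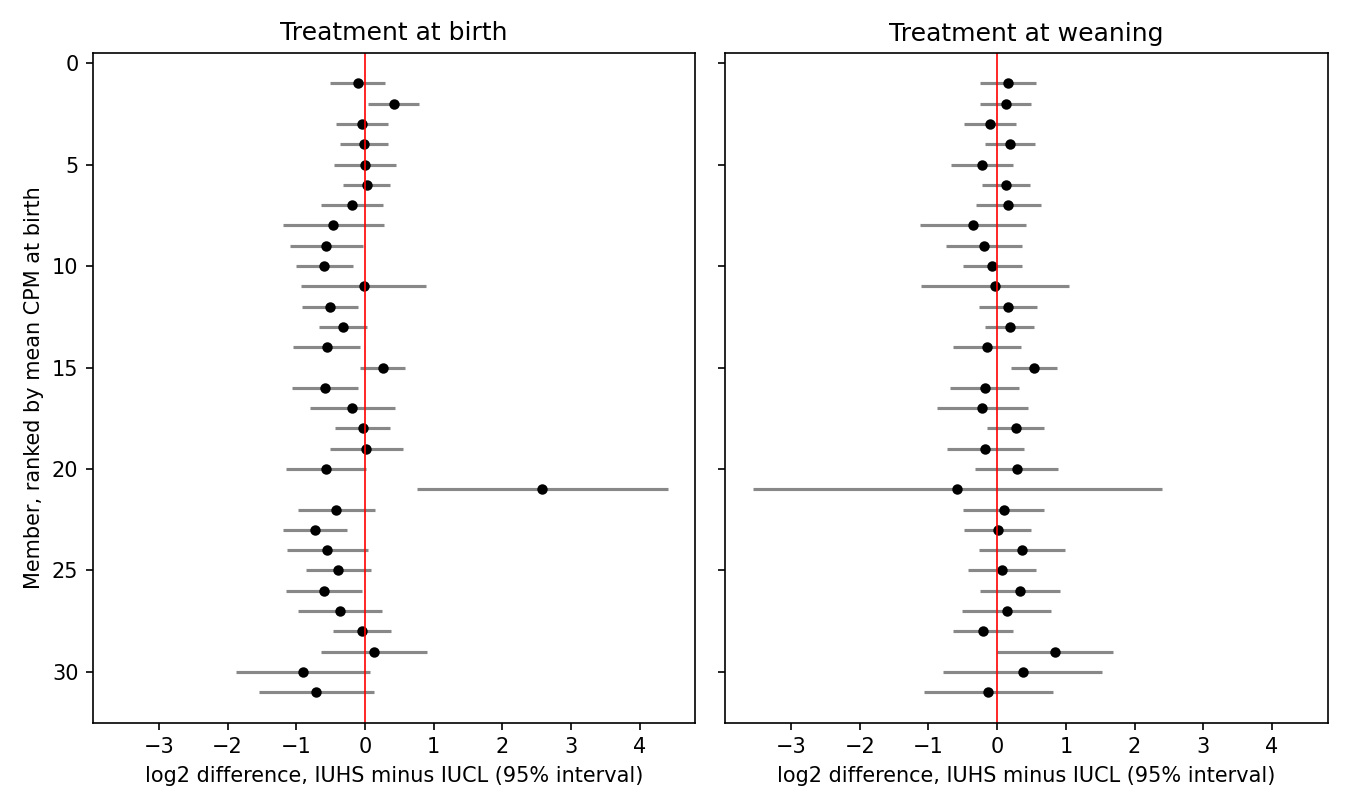
Fitted treatment difference (IUHS minus IUCL, log2) with its 95% interval for each member at birth (left) and at weaning (right), ranked by mean birth CPM. Most points lie left of 0 at birth (25 of 31), while at weaning 18 of 31 lie right of 0. Over all genes tested, 51.4% were above 0 at birth and 51.2% at weaning. The outlying point at birth is the member dominated by IUHS calf 4.

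The SE and the 95% interval of the treatment differences were compared with those of all genes. The median SE over members was 0.23 at birth and 0.24 at weaning (log2), against 0.20 over all genes at each age. The 95% interval lay within a 2-fold difference in either direction for 19 of 31 members (61.3%) and 76.4% of all genes at birth, and for 25 of 31 members (80.65%) and 76.95% of all genes at weaning. For the interaction it did so for 12 of 31 members (38.7%) and 61.2% of genes. The members' share was thus lower at birth and for the interaction, and slightly higher at weaning. This share depends on the size of the difference as well as on its SE, so it does not measure precision alone. The median absolute difference (log2) was 0.39 over members and 0.12 over all genes at birth. It was 0.18 and 0.15 at weaning, and 0.40 and 0.20 for the interaction. For the remaining members a difference of 2-fold between treatments was inside the interval.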

How the data were processed

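The authors deposited raw read counts per Ensembl bovine gene ID, 1 table per calf. The submitters' processing notes name HTSeq, HISAT2, Trim Galore 0.4.4 and FastQC 0.11.7 and the bovine assembly ARS-UCD1.2. The annotation release was not given in the sources used here, nor were other tool versions. Members were found on CPM by the total of each table. The members and lists were chosen with earlier results of these data known. Tests used edgeR 4.0.16 under R 4.3.3: filterByExpr (minimum count 10, minimum total 15) left 15693 genes, scaled by TMM, in a robust quasi-likelihood model with a mean per group. P-values were two-sided with Benjamini-Hochberg adjustment over all genes, threshold 0.05. DESeq2 1.42.0 was an alternative. Co-variation and principal components used log2 CPM with a prior count of 2. The model was tested on simulated data. The 14 gene lists and the marker lists need symbols and were not run. Without symbols the naming rule allowed 2 IDs: the most abundant member, and the largest ratio among members with at least 5 CPM at birth and no library above 50% of the birth signal. Ranks stand for all others. Python 3.11.15 and matplotlib 3.10.9 were used for descriptions and plots.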

Additional observations from a re-analysis of the deposited data

How the results depend on the processing

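The number of members, 31, was 3 with a fold limit of 4, 54 without both IUHS weaning calf 28 and IUCL birth calf 3, and 129 without both IUHS birth calf 5 and IUCL birth calf 3. Leaving out each library in turn gave 29 to 106, with 106 without IUHS birth calf 5 and 48 without IUCL birth calf 3. The other settings gave 24 (pseudocount 2) to 44 (fold limit 1.5). With TMM-scaled CPM 26 IDs met the rule, 23 of them members. The settings that left out pairs of calves, and one that thinned libraries to the smallest total, were chosen after seeing the data. For the treatment comparisons and the interaction, 0 members were called under any setting run. Members at an unadjusted p under 0.05 in edgeR ranged from 6 to 12 at birth, 1 to 3 at weaning and 1 to 7 for the interaction without each library in turn, and without both IUHS weaning calf 28 and IUCL birth calf 3 they were 7, 1 and 0. At weaning there was also 1 when only the 12 libraries of that age were fitted.

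Both treatments had birth calves numbered 1, 2, 5 and 7. Deviations of same-numbered calves correlated at -0.123, -0.105, 0.169 and 0.295, and 4 of the 8 calves correlated best with their own number. With only 4 shared numbers, these values cannot decide whether the numbers pair calves. Nothing in the labels says that they do, so the main fit had no block for these numbers. With these numbers as a replicate block, 0 members were called and 7 had an unadjusted p under 0.05, against 0 and 6 in the same 8 calves without the block. For ENSBTAG00000037899 the difference at birth turned in sign in these calves both with the block (0.0737) and without it (0.03495). For ENSBTAG00000016171 it turned in sign with the block (0.22) but not in these calves without it (-0.04). The cause was not tested. For ENSBTAG00000037899, leaving out each library in turn gave -0.22 to -0.03 at birth, 0.03 to 0.30 at weaning and 0.16 to 0.41 for the interaction. For ENSBTAG00000016171, leaving out each library in turn gave -0.23 to 0.20 at birth, -0.27 to 0.16 at weaning and -0.25 to 0.20 for the interaction. None of these values passed the threshold.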

Other observations

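Single values that stood apart from the other 5 calves of their group by Dixon's test were counted over all members. In 124 sets of 6 values, 13 such values were found, and no library held more than 2 of them. Chance sets apart about 1 in 20 independent, unselected sets. That share is no background here, because members vary together and were selected on their lowest birth and highest weaning values. No share over all genes tested is given, so an excess in the members cannot be read from the 13. IUHS calf 5, the lowest birth library for 11 members, held 1. In the 20 sets tested for the share of counts in the members, the median deviation of the members, both named IDs and the total counts, 0 values stood apart.

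Among the weaning libraries, IUHS calves were the highest for 20 members and IUCL calves for 11. Among the birth libraries IUHS calves were the lowest for 19 members and IUCL calves for 12. IUHS calf 5 alone was the lowest for 11 of those 19. Shares by treatment over all genes tested were not computed, so these counts are a description and no sign of a treatment difference. The median deviation of the members from their age mean was lowest at birth in IUHS calf 5 (-0.43 on the log2 scale) and highest in IUCL calf 2 (0.42). At weaning it was lowest in IUCL calf 13 (-0.37) and highest in IUCL calf 15 (0.35). The group means at birth stood at 0.06 ± 0.24 for the IUCL and -0.13 ± 0.18 for the IUHS group, and at weaning at -0.01 ± 0.24 and 0.05 ± 0.20 (SD, n = 6 each).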
